A study of Mus musculus with 12 samples.

Results

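The transcripts described here are those of 34 genes that cells switch on to copy their DNA and divide, 21 of them acting in mitosis and 13 in DNA replication. Members were all probe sets that the platform annotation assigned to a listed gene and to no other, 75 of the 45101 probe sets of the array. These 75 probe sets named 33 of the 34 genes. Ccnb1, which encodes cyclin B1, lay on a probe set shared with another gene and has no value here. The array named 18193 genes in all, of which 12726 passed a filter on low values (an intensity of at least 16 on at least 3 arrays), and all 33 members were among them. The brightest probe set of each gene, by its mean on all arrays, stood for that gene, and the other probe sets are given separately.

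Total RNA of mouse testes at stage E15.5 was measured on 12 Affymetrix arrays, 3 in each of 4 groups: wild-type 129Sv, Dmrt1 knockout 129Sv, wild-type B6 and Dmrt1 knockout B6. The series text calls the removal of Dmrt1 conditional, while the sample labels say only Dmrt1 knockout, and no Cre driver, litter or pooling is given in the sources used here. The labels also do not say whether replicates came from separate animals, so the p-values cover only the spread among the samples at hand, which may be technical. The growth protocol in the labels names P28 for the embryos, and the stage in the sample labels was followed. The comparisons ask what loss of Dmrt1 and the strain background do to genes of the dividing cell.

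Most of these genes are transcribed only in cycling cells, so that their level in a whole organ reports how many cells are dividing as well as how much each gene is transcribed. The MCM proteins form the helicase that opens DNA at replication origins, Cdc6 and Cdt1 load it, geminin (Gmnn) blocks reloading, and E2F1 is a transcription factor that switches on such genes at entry into S phase. Cyclin A2, cyclin B2 and CDK1 drive entry into mitosis, Aurora and Polo-like kinases build and orient the spindle, and Bub1, Bub1b, Ttk and Mad2l1 belong to the spindle checkpoint, which holds cells until all chromosomes are attached. In the fetal testis Sertoli cells divide, whereas male germ cells leave the cell cycle and wait in G1 until after birth. Dmrt1 encodes a DM domain transcription factor of germ cells and Sertoli cells. In bulk tissue, fewer dividing cells and less RNA per cell cannot be told apart.

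Promoter motifs known from cell cycle genes were frequent among the members. As examples, 5 promoters are shown, of genes with a call described below. Mcm5, Mcm6 and Mcm7 differed between strains among knockouts on their brightest probe sets. Mki67 was lower in 129Sv than in B6 among knockouts, and Mad2l1 fell in B6 knockouts. Each line gives the 200 bases before the start of the gene, 5′ to 3′ on the gene's strand, from RefSeq promoters of build GRCm38.p6. Capitals mark the motifs TTTGAA (the cell cycle homology region of genes expressed late in the cycle), CCAAT and the E2F-type motifs TTTGGCGC, TTTCCCGC and TTTCGCGC, searched on both strands, so that a motif on the other strand shows as its reverse complement. The stretches are Mcm5 at chr8:75109309-75109508 (plus strand), Mcm6 at chr1:128359706-128359905 (minus strand), Mcm7 at chr5:138171884-138172083 (minus strand), Mki67 at chr7:135716380-135716579 (minus strand) and Mad2l1 at chr6:66535021-66535220 (plus strand).
Mcm5: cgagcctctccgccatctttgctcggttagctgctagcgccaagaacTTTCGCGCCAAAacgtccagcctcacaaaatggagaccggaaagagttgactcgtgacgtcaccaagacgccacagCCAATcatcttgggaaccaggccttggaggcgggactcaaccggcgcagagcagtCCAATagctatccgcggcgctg
Mcm6: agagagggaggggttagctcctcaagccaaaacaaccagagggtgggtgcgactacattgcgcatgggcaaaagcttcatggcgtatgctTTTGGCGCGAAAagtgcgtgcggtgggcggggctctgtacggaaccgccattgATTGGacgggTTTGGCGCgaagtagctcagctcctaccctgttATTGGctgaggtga
Mcm7: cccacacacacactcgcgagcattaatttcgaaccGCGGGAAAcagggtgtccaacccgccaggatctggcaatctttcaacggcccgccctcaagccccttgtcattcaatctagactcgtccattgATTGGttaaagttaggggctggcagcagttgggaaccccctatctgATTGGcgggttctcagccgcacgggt
Mki67: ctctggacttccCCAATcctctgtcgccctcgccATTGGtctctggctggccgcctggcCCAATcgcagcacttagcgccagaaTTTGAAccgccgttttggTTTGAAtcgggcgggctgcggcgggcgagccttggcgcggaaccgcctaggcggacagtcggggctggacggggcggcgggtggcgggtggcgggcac
Mad2l1: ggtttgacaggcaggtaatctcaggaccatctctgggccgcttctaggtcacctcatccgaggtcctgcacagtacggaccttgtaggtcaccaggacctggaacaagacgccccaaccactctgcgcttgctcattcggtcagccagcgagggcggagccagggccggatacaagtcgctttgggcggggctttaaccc
In Mcm5 and in the first capital run of Mcm6, TTTCGCGC and TTTGGCGC lie on opposite strands and overlap. The Mad2l1 stretch holds none of the 5 motifs.

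Promoters of 28 of the 34 genes were in the table, 29 in number because Mcm7 has a pair, and they were searched over 300 bases, 250 before and 50 after the start. TTTGAA was present in 11 of 17 mitosis genes with a promoter, and in 1 of 11 replication genes, which was Mcm2. It occurs in 17.9% of all 32851 promoters. An E2F-type motif was found in 6 of 11 replication genes (Cdc6, Cdt1, Mcm3, Mcm5, Mcm6 and Mcm7) and in 1 of 17 mitosis genes, Cdk1, against 1.84% of all promoters. CCAAT was present in 14 of 17 mitosis genes and 7 of 11 replication genes, against 37.4% of all promoters. These are counts of letters in a window and not measured binding sites.

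Dmrt1 itself fell in the knockouts of both strains. Its intensity was 1040 ± 132 (SD, n = 3) in wild-type 129Sv and 167 ± 18.9 (SD, n = 3) in 129Sv knockouts, a log2 difference of -2.64 ± 0.17 (SE; limma, adjusted p = 4.72e-07). In B6 it was 984 ± 164 (SD, n = 3) against 74.4 ± 11.3 (SD, n = 3), a log2 difference of -3.72 ± 0.17 (SE; limma, adjusted p = 1.97e-08). An exact two-sided permutation test gave p = 0.1 in each strain, the smallest that 3 arrays against 3 allow. Median intensities of the arrays lay between 17.3 and 19, and arrays of a group correlated with r between 0.983 and 0.998. Degradation of RNA raises the 3′ over 5′ signal of Actb, and this ratio was 6.30 on B6 knockout replicate 3, 5.24 on 129Sv knockout replicate 1 and 3.91 on 129Sv wild-type replicate 2, and it lay between 1.99 and 2.79 on the other 9 arrays. B6 knockout replicate 3 held the highest or the lowest of the 12 values for 11 of the 33 members, and 129Sv knockout replicate 2 for 12 of them.

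Levels of the members were high and steady. Birc5, which encodes the chromosomal passenger protein survivin, stayed between 4829.5 and 6019 on all 12 arrays, and Cdk1, the mitotic kinase, between 2729.7 and 3488. Tyms, which makes thymidylate, read lowest, from 38.3 to 65.2. The median range of a member over the 12 arrays was 0.65 on the log2 scale, against 0.95 for all tested genes, and the median SD within groups was 0.15 against 0.21. Between members, the range ran from 0.32 for Birc5 to 1.46 for Bub1.

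Loss of Dmrt1 in 129Sv moved none of the 33 members past the threshold (limma with Benjamini-Hochberg adjustment over all tested genes, adjusted p under 0.05). Over all tested genes 8.31% passed, 4.07% higher and 4.24% lower. At an unadjusted p under 0.05, 3 members were higher (Ttk, E2f1 and Mcm2) and 1 was lower (Tpx2), against 21% of all genes in either direction. The median log2 difference of the members was 0.02, beside -0.01 for all tested genes. No member differed by more than 1.28-fold between the group means. The 95% interval stayed within 1.5-fold for 29 of the 33 members, against 52.7% of all genes, and within 2-fold for all 33, against 85%.

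The largest differences in this strain were in kinases and motors of the spindle. Ttk, the checkpoint kinase also called Mps1, read 628, 745 and 622 on the wild-type 129Sv arrays and 823, 791 and 938 on the knockout arrays. Its log2 difference was 0.36 ± 0.15 (SE; limma, adjusted p = 0.17). Kif11, the motor that pushes spindle poles apart, read 884, 1012 and 843 in wild type and 1119, 1217 and 1107 in knockouts, a log2 difference of 0.33 ± 0.22 (SE). For both genes every knockout array lay above every wild-type array, and neither difference passed the test. Cenpe, a kinetochore motor, read 526, 794 and 532 against 579.8, 390.5 and 488, a log2 difference of -0.34 ± 0.26 (SE), and the groups overlapped. Mki67, the antigen used to stain dividing cells, read 2448, 3342 and 2539 in wild type and 2699, 1997 and 2074 in knockouts, a log2 difference of -0.30 ± 0.14 (SE; limma, adjusted p = 0.25), also with overlap. Groups did not overlap for 7 members that were higher and 1 that was lower in 129Sv knockouts, a share to be read against 14.2% and 14.6% of all genes. The 6 MCM genes lay between 0.11 (Mcm4) and 0.26 (Mcm2) above wild type on the log2 scale, without passing.

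In B6, 1 of the 33 members passed, and it was lower in knockouts, against 7.9% of all tested genes in either direction, 2.45% higher and 5.45% lower. This was Mad2l1, the checkpoint protein that binds and inhibits Cdc20. It read 2129.8, 2465 and 2290.3 on the wild-type B6 arrays and 1669, 1913 and 1685 on the knockout arrays. All 3 knockout arrays lay below the lowest wild-type array. The log2 difference was -0.39 ± 0.10 (SE; limma, adjusted p = 0.024), a 1.31-fold fall. The call was lost when wild-type B6 replicate 2 or 3 or B6 knockout replicate 1 or 3 was left out, with log2 differences from -0.39 to -0.33 and adjusted p from 0.0561 to 0.0972. It was also lost with the Actb ratio as a covariate (-0.31). In 129Sv the same probe set read 2843, 2718 and 2839.7 in wild type and 2459, 2682 and 2899 in knockouts, a log2 difference of -0.07 ± 0.10 (SE).

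The members that stood highest in B6 knockouts did not pass. Mki67 read 2743, 2238.3 and 2691 in wild-type B6 and 3085, 3834 and 3320.5 in knockouts, a log2 difference of 0.42 ± 0.14 (SE; limma, adjusted p = 0.0927). All 3 knockout arrays lay above the wild types, where in 129Sv the mean difference of this gene was negative. Kif20a, a kinesin of the dividing cell's midzone, read 856, 758 and 910.5 in wild type and 1116, 1182 and 1022 in knockouts, also without overlap, with a log2 difference of 0.40 ± 0.16 (SE; limma, adjusted p = 0.14). Bub1, the checkpoint kinase at kinetochores, was at the opposite end. It read 2174, 2041 and 2381 in wild type and 1905, 1983 and 1199.5 in knockouts, a log2 difference of -0.41 ± 0.15 (SE; limma, adjusted p = 0.11), and without B6 knockout replicate 3 the difference was -0.17. Kif11 was high on that array, which read 2146 where the other 2 knockouts read 1029.9 and 963.

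Counts in B6 were low as in 129Sv. At an unadjusted p under 0.05, 4 members were higher (Mki67, Kif20a, Top2a and Mcm2) and 2 were lower (Mad2l1 and Bub1), against 24.8% of all genes in either direction. The median log2 difference was 0.00 for the members and 0.03 for all genes. No member changed by more than 1.33-fold, intervals stayed within 1.5-fold for 24 of 33 members against 48.7% of all genes, and within 2-fold for all 33 against 83%. Groups did not overlap for 3 members that were higher and 6 that were lower, beside 14.3% and 13.4% of all genes. Replication genes lay between -0.23 (Cdc6) and 0.25 (Mcm2).

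**Figure D1:**
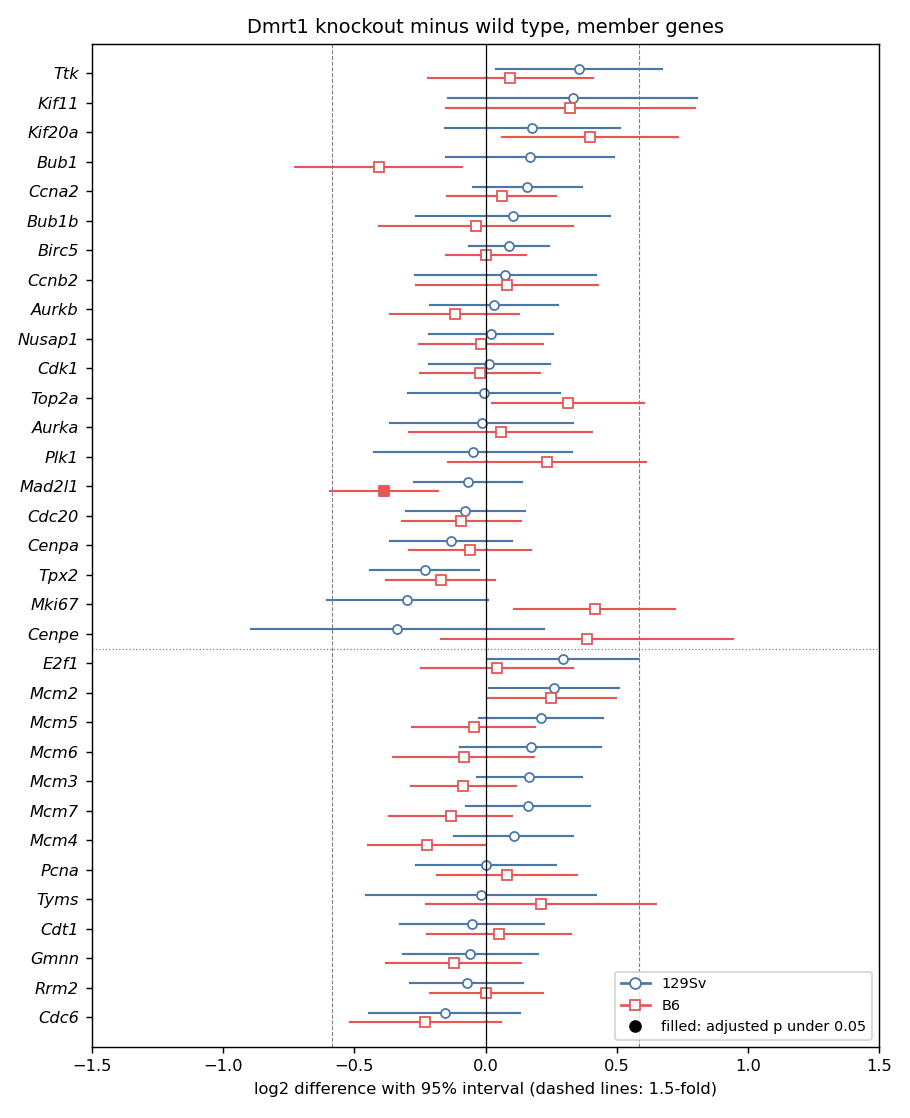
Log2 difference between Dmrt1 knockout and wild type with its 95% interval for each of the 33 members, in 129Sv (blue circles) and B6 (red squares), with mitosis genes above the dotted line and DNA replication genes below it. The only filled marker, for adjusted p under 0.05, is Mad2l1 in B6 at -0.39, and every interval lies within a 2-fold change.

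The difference between the knockout effects of the strains was tested directly. Of the 33 members 0 passed, against 1.31% of all genes. At an unadjusted p under 0.05, 3 members had the higher effect in 129Sv (Bub1, Mad2l1 and Mcm4) and 1 the lower (Mki67), beside 16.3% of all genes in either direction. For Mki67 the difference of effects was -0.71 ± 0.20 (SE; limma, adjusted p = 0.10), and for Cenpe -0.72 ± 0.37 (SE; limma, adjusted p = 0.35). For Bub1 it was 0.58 ± 0.21 (SE; limma, adjusted p = 0.20). The intervals of these differences are wide, from -1.15 to -0.28 for Mki67, and 17 of the 33 members had an interval within 1.5-fold.

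Averaged over the strains, 1 member passed, lower in knockouts, where 5.62% of all genes were higher, 7.88% were lower and 13.5% passed in either direction. Mad2l1 had an average log2 difference of -0.23 ± 0.07 (SE; limma, adjusted p = 0.0395). This call was lost on leaving out any of 8 single arrays (129Sv wild-type replicate 1 or 3, 129Sv knockout replicate 1 or 2, B6 wild-type replicate 2 or 3, B6 knockout replicate 1 or 3), with log2 differences from -0.23 to -0.20. The count of members was 3 without 129Sv wild-type replicate 2 and 2 without 129Sv knockout replicate 3 or B6 wild-type replicate 1. Mcm2, a subunit of the replicative helicase, had the next smallest adjusted p. It read 2519, 2797 and 2333 in wild-type 129Sv and 3369, 3259.8 and 2571 in 129Sv knockouts. In B6 it read 2798, 2436 and 2278 in wild type and 2858, 3060.0 and 2990.2 in knockouts. The values moved up by nearly the same amount in each strain, with log2 differences of 0.26 ± 0.12 and 0.25 ± 0.12 (SE). The average of 0.26 ± 0.08 (SE; limma, adjusted p = 0.0518) fell just short of the threshold.

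Strain differences were more numerous than knockout differences, among members as among all genes. The last title number divides the strains completely, so strain and that number cannot be told apart. In wild-type testes 4 of the 33 members passed, 2 higher in 129Sv and 2 lower, beside 16.1% of all genes (10.9% higher and 5.19% lower). All 4 act in mitosis. Plk1, the Polo-like kinase that triggers spindle assembly and mitotic exit, read 285, 382 and 292 in wild-type 129Sv and 199, 171 and 228 in wild-type B6. Its log2 difference of 0.68 ± 0.18 (SE; limma, adjusted p = 0.0176) is a 1.60-fold higher level in 129Sv. Ttk was higher in 129Sv by 0.46 ± 0.15 (SE; limma, adjusted p = 0.0457), with the 129Sv values above and B6 values of 530.0, 459 and 459. Ccna2, cyclin A2, went the other way. It read 2068, 2449 and 1995 in 129Sv and 2909.7, 2661 and 3139.7 in B6, a log2 difference of -0.42 ± 0.10 (SE; limma, adjusted p = 0.00907). Tpx2, which activates Aurora A at the spindle, read 1704, 1470.2 and 1494 in 129Sv and 1880.2, 2059 and 1878 in B6, a log2 difference of -0.32 ± 0.10 (SE; limma, adjusted p = 0.0373). None of these 4 genes had overlapping arrays between the wild types.

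Of these calls only that of Ccna2 stood on leaving out each of the 12 arrays. Plk1 was lost without 129Sv wild-type replicate 2 or B6 wild-type replicate 1 or 2 (0.54 to 0.68). Tpx2 was lost without 129Sv wild-type replicate 2 or 3, any B6 wild type or B6 knockout replicate 2 (-0.34 to -0.28). Ttk was lost without any wild-type array, without 129Sv knockout replicate 1 or 3 and without B6 knockout replicate 1 (0.38 to 0.53). The count of members was 1 without 129Sv wild-type replicate 2 or B6 wild-type replicate 1 or 2, 2 without 129Sv wild-type or B6 wild-type replicate 3, and 7 without B6 knockout replicate 3. At an unadjusted p under 0.05, 7 members were higher and 4 lower, beside 30.4% of all genes in either direction. Cenpe had the next largest difference, 0.56 ± 0.26 (SE; limma, adjusted p = 0.16), with B6 wild-type values of 461, 299 and 499. The arrays of the groups did not overlap for 8 members higher and 5 lower in 129Sv, beside 26.6% and 14.1% of all genes. Median log2 differences were 0.09 for the members and 0.06 for all genes.

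Among knockouts, 13 of the 33 members differed between strains, 9 higher in 129Sv and 4 lower. Over all genes 34.1% passed, 20.3% higher and 13.8% lower, so the share among members was near that of all genes. At an unadjusted p under 0.05 there were 10 higher and 6 lower, beside 44.2% of all genes. The members higher in 129Sv knockouts were 3 spindle checkpoint genes (Bub1, Ttk and Mad2l1) and 6 replication genes (Mcm3, Mcm4, Mcm5, Mcm6, Mcm7 and E2f1). Those lower in 129Sv knockouts were Mki67, Ccna2, Cenpa and Tpx2. Groups did not overlap for 12 members higher and 4 lower, beside 25% and 18.8% of all genes, and the median log2 difference was 0.04 for the members and 0.03 for all genes. This comparison shares its knockout arrays with the comparisons of knockout and wild type above.

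Of the 4 checkpoint genes on the list, 3 were higher in 129Sv knockouts on their brightest probe sets, while Bub1b differed by 0.08 and did not pass. Bub1 read 3296, 3075 and 3217 in 129Sv knockouts and 1905, 1983 and 1199.5 in B6 knockouts, a log2 difference of 0.95 ± 0.15 (SE; limma, adjusted p = 0.000282), or 1.93-fold. In the wild types it read 2686, 2886 and 2958 against 2174, 2041 and 2381, which did not pass (0.37 ± 0.15, SE). On this probe set, 1424046_at, all 129Sv arrays of either genotype lay above all B6 arrays. On the dimmer 1438571_at the order was turned, with 129Sv knockouts at 108, 104 and 77.3 and B6 knockouts at 304, 337 and 337, a log2 difference of -1.77 (limma, adjusted p = 1.05e-05). Ttk differed by 0.72 ± 0.15 (SE; limma, adjusted p = 0.00192), with B6 knockout values of 552, 586 and 420.1. Its dim second probe set, 1442594_at, gave -0.70 without passing (limma, adjusted p = 0.26), and the mean of both probe sets gave 0.01 among knockouts and 0.11 among wild types, neither of which passed. Mad2l1 differed by 0.61 ± 0.10 (SE; limma, adjusted p = 0.000299), or 1.53-fold. Its strain difference in wild types, 0.29 ± 0.10 (SE; limma, adjusted p = 0.0546), pointed the same way without passing.

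Helicase subunits had smaller differences of similar size. Mcm5 read 2659, 2955 and 2472 in 129Sv knockouts and 1904, 1703 and 1786 in B6 knockouts, a log2 difference of 0.58 ± 0.11 (SE; limma, adjusted p = 0.00115). Mcm3 read 3430.0, 3377 and 3151 against 2854, 2286 and 2516, a difference of 0.38 ± 0.09 (SE; limma, adjusted p = 0.0062). Mcm7 read 3632, 3556 and 3426 against 3074, 2919 and 2196, a difference of 0.39 ± 0.11 (SE; limma, adjusted p = 0.0143). Groups did not overlap for these 3 subunits, nor for the next pair. Mcm4 read 5109.8, 5845 and 4606 against 4402, 3867 and 4113 (0.32 ± 0.11, SE; limma, adjusted p = 0.0282). Mcm6 read 5247, 5699 and 5031 against 4884, 4279 and 3477 (0.35 ± 0.13, SE; limma, adjusted p = 0.0434). The sixth subunit, Mcm2, differed by 0.04 ± 0.12 (SE) and did not pass. E2f1 read 673, 697 and 649 in 129Sv knockouts and 549, 511 and 472 in B6 knockouts (0.40 ± 0.14, SE; limma, adjusted p = 0.033).

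On the brightest probe sets the wild types gave the helicase genes smaller strain differences, which not all of their other probe sets share, as given below. Mcm5 read 2487, 2135 and 2353 in wild-type 129Sv and 1959, 2013 and 1614 in wild-type B6, a log2 difference of 0.32 ± 0.11 (SE; limma, adjusted p = 0.0576). The strain differences of the other 5 subunits in wild types lay between -0.01 (Mcm4) and 0.13 (Mcm3), and none passed. The change of the strain difference with genotype, which is the difference of knockout effects, lay between 0.01 (Mcm2) and 0.33 (Mcm4) for the 6 subunits and did not pass for any (adjusted p from 0.29 to 0.98).

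Of the genes lower in 129Sv knockouts, Mki67 showed the largest difference, with the 129Sv values of 2699, 1997 and 2074 all below the B6 values of 3085, 3834 and 3320.5. The log2 difference was -0.60 ± 0.14 (SE; limma, adjusted p = 0.00527), against 0.11 ± 0.14 (SE) in wild types. Ccna2 read 2487, 2339 and 2419.8 in 129Sv knockouts and 3027, 2933 and 3112 in B6 knockouts (-0.32 ± 0.10, SE; limma, adjusted p = 0.019). Tpx2 read 1247, 1375 and 1346 against 1769, 1733 and 1662 (-0.38 ± 0.10, SE; limma, adjusted p = 0.00813). On these probe sets Ccna2 and Tpx2 were lower in 129Sv in both genotypes. The second probe set of Tpx2, 1428104_at, gave 0.15 among wild types and 0.10 among knockouts, and that of Ccna2, 1417911_at, gave -0.08 and -0.05 with overlapping groups. None of these 4 values passed. Cenpa, the histone variant that marks centromeres, read 954, 976 and 818 against 1142, 1138 and 1119 (-0.31 ± 0.11, SE; limma, adjusted p = 0.039).

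Of the 13 calls, those of Bub1, Ttk, Mad2l1, Mki67, Ccna2, Tpx2, Mcm3, Mcm5 and Mcm7 stood on leaving out each single array. Mcm4 was lost without 129Sv knockout replicate 1 or 2 or B6 knockout replicate 2 or 3 (0.24 to 0.33). Mcm6 was lost without 129Sv wild-type replicate 1 or 3, any 129Sv knockout, B6 wild-type replicate 2 or B6 knockout replicate 2 or 3, and it was 0.22 without the last. E2f1 was lost without any 129Sv knockout or B6 knockout replicate 2 or 3 (0.35 to 0.43). Cenpa was lost without 129Sv wild-type replicate 1, 129Sv knockout replicate 1 or 3, B6 wild-type replicate 3 or any B6 knockout (-0.34 to -0.23). The direction of each of these differences was as given in all of these fits. With the title number before the strain code as a covariate, which is 7 in all 129Sv knockouts but not in all 129Sv wild types, 5 of the 13 passed (Ccna2, Mad2l1, Mcm4, Mcm5 and Mki67). Without the 2 arrays of the highest Actb ratio, 7 of the 13 passed (Bub1, Ttk, Mad2l1, Mki67, Tpx2, Mcm3 and Mcm5) and Top2a was added.

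**Figure D2:**
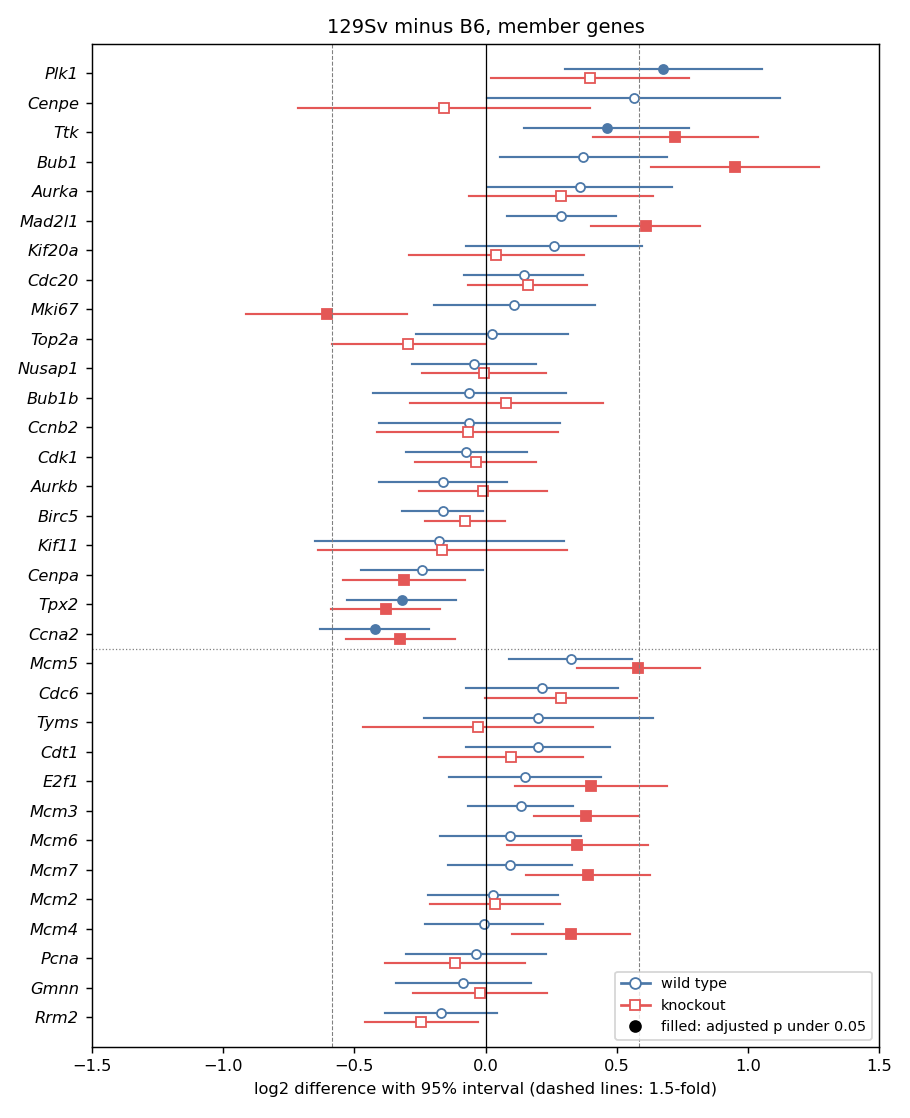
Log2 difference between 129Sv and B6 with its 95% interval for the 33 members, among wild types (blue circles) and among knockouts (red squares), with mitosis genes above the dotted line and DNA replication genes below it. Filled markers passed at adjusted p under 0.05, 4 among wild types and 13 among knockouts, with Bub1 reaching 0.95 and Mki67 -0.60 among knockouts.

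**Figure D3:**
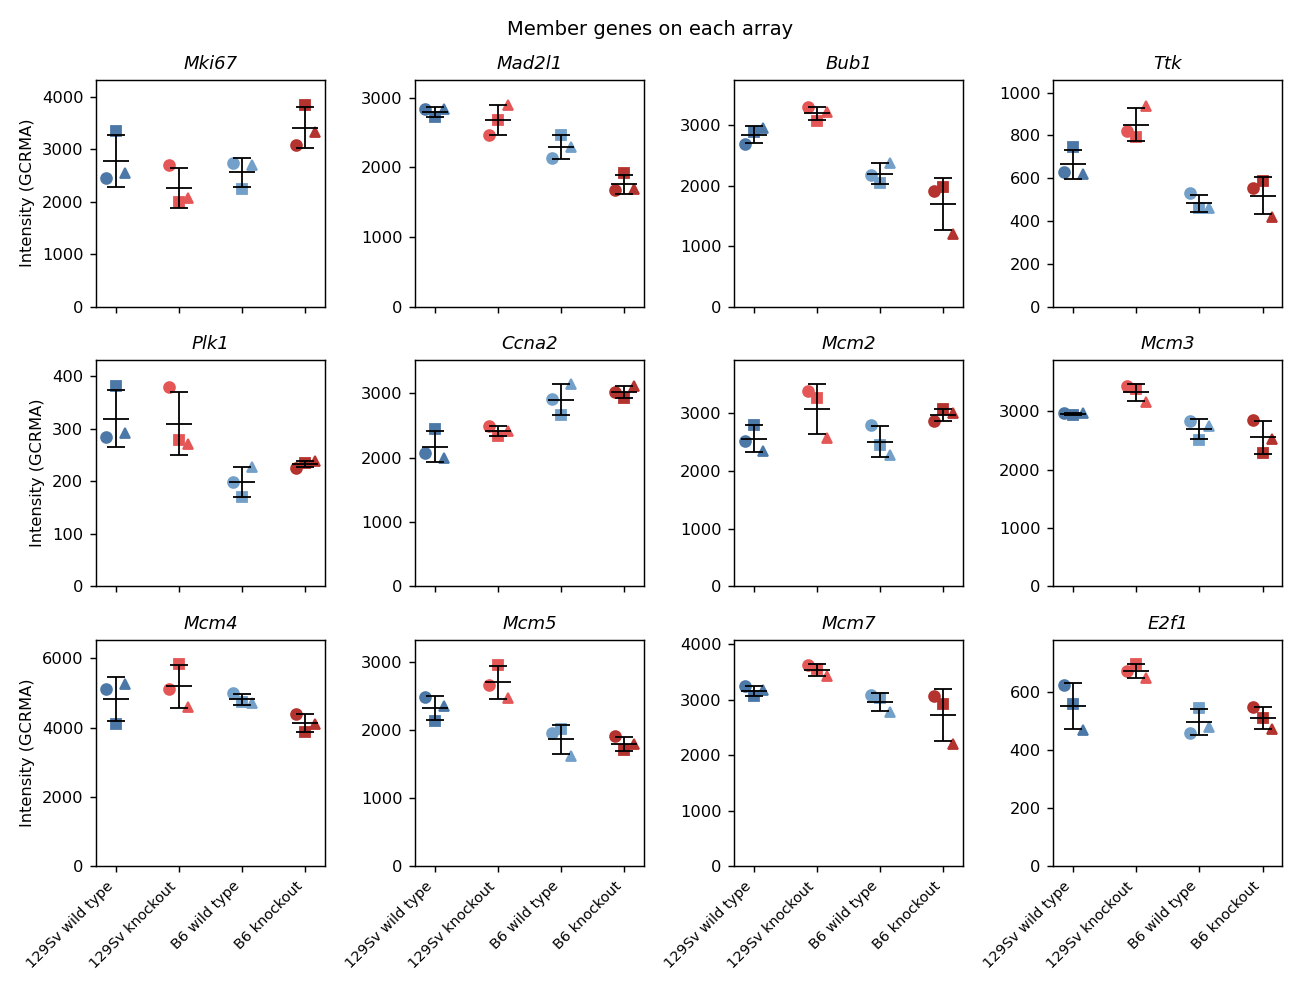
Intensity of 12 members on each of the 12 arrays, by strain and genotype, with circles, squares and triangles for replicates 1, 2 and 3 and bars for the mean ± SD of 3 arrays. Bub1 reads 2686 or more on every 129Sv array and 2381 or less on every B6 array, and Mki67 reads 3085 or more on all 3 B6 knockouts.

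Cell type markers differed between the same groups. The germ cell list, 8 of whose 10 genes were tested, had a mean log2 level of 10.70 to 10.84 in wild-type 129Sv, 10.85 to 11.18 in 129Sv knockouts, 10.17 to 10.38 in wild-type B6 and 9.58 to 9.89 in B6 knockouts. Among knockouts 8 of the 8 were higher in 129Sv, beside 20.3% of all genes. Among wild types 1 of the 8, Rnf17, was higher in 129Sv, beside 10.9% of all genes. With the knockout 2 of the 8 rose in 129Sv (Rnf17 and Dppa3), and in B6 Rnf17 rose while Mael, Dnd1 and Tex101 fell. Over all genes 4.07% rose and 4.24% fell in 129Sv, and 2.45% rose and 5.45% fell in B6. Of 5 mesonephros markers 2 were tested, with Wnt9b below the filter, and they went opposite ways. Lhx1 rose 10.5-fold in 129Sv and 5.33-fold in B6. Pax8 fell 3.69-fold in 129Sv and did not pass in B6 (log2 difference -0.13). The mean log2 level of these 2 genes was 4.89 to 5.41 in wild-type 129Sv and 5.08 to 5.27 in wild-type B6. That is near the filter, a log2 value of 4, so the fold changes are uncertain in size. Of the Sertoli markers, a list that holds Dmrt1 itself, 4 of 9 tested fell with the knockout in 129Sv and 3 in B6. Dmrt1, Fshr and Cst9 fell in both strains, and Inhbb in 129Sv. Log2 differences were -1.65 and -1.97 for Fshr and -1.20 and -1.35 for Cst9. The median of the 9 was -0.29 in 129Sv and -0.21 in B6. The mean log2 level of the list lay between 9.86 and 10.21 in wild types and between 9.02 and 9.39 in knockouts. Dmrt1, the gene removed, is in that mean, so part of the lower level is built in. In each knockout group 1 of the 9 read below 16 on all arrays, so the size of such a gene's change is uncertain. Among knockouts 3 of the 9 were lower in 129Sv and 1, Dmrt1, was higher, beside 13.8% and 20.3% of all genes. Fetal Leydig markers were lower in 129Sv than in B6 among knockouts for 4 of 5, and endothelial markers for 3 of 5, beside 13.8% of all genes. Lower calls were also found for 1 of 5 macrophage markers (Adgre1) and 1 of 3 red blood cell markers (Alas2). Of 6 interstitial and peritubular markers 2 were lower (Tcf21 and Col1a1). No marker of these lists passed as higher. The part of these cell types in the results on dividing-cell genes was not tested.

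Array by array, the members were summed up by a readout, which is the mean over genes of the log2 value minus that gene's own mean over the 12 arrays. For all 33 members it was 0.02 ± 0.08 (SD, n = 3) in wild-type 129Sv, 0.07 ± 0.08 (SD, n = 3) in 129Sv knockouts, -0.06 ± 0.04 (SD, n = 3) in wild-type B6 and -0.03 ± 0.02 (SD, n = 3) in B6 knockouts. All tested genes gave 0.05 ± 0.03, 0.04 ± 0.04, -0.04 ± 0.03 and -0.05 ± 0.05 (SD) in the same groups. Since members went both ways, values near 0 say nothing about single genes. The 20 mitosis genes gave 0.02 ± 0.12, 0.04 ± 0.11, -0.06 ± 0.09 and -0.003 ± 0.04 (SD) in the same order. Ranges of the mitosis readout overlapped between all groups. The 13 replication genes gave 0.03 ± 0.03, 0.11 ± 0.05, -0.06 ± 0.07 and -0.08 ± 0.05 (SD). The 3 knockout 129Sv arrays read 0.157, 0.104 and 0.064, above all wild-type 129Sv arrays, of which the highest read 0.056. The B6 knockouts read -0.03, -0.08 and -0.13. For 58 further replication genes, described below, the 129Sv groups overlapped. There 129Sv wild-type replicate 2 read 0.123, and the 129Sv knockouts read 0.213, 0.047 and 0.090. On 129Sv knockout replicate 1, with its high Actb ratio, 26 of the 33 members lay above their own mean, the most of any array, while B6 knockout replicate 3 had 15.

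**Figure D4:**
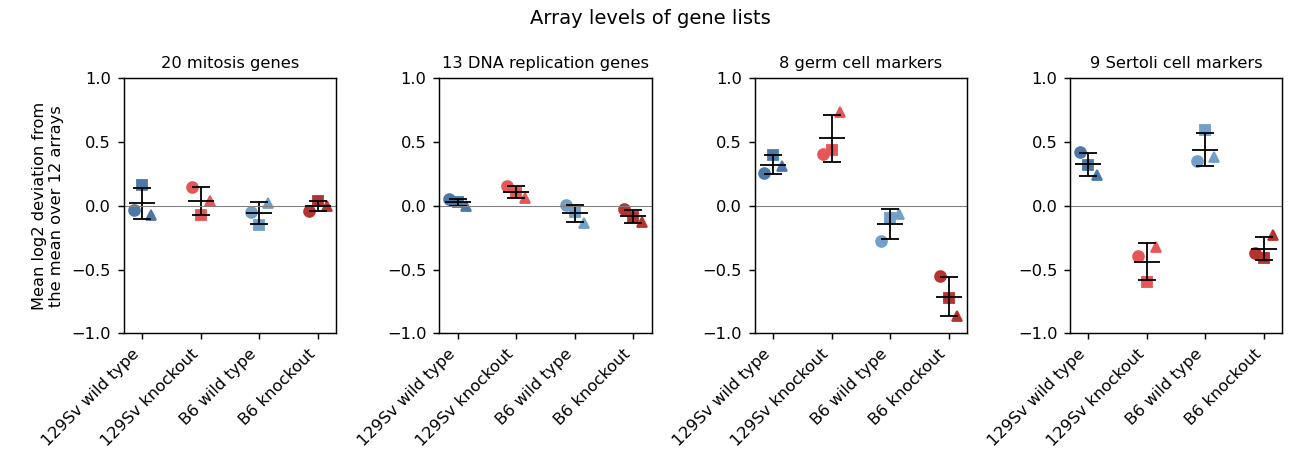
Mean log2 deviation from the 12-array mean for the 20 mitosis genes, the 13 DNA replication genes, 8 germ cell markers and 9 Sertoli cell markers, on each array (circles, squares and triangles for replicates 1, 2 and 3) with the group mean ± SD of 3 arrays. The mitosis and replication genes stay within 0.2 of zero on all 12 arrays, while germ cell markers range from -0.86 to 0.74. The mean of the Sertoli markers is below zero on all 6 knockout arrays, and this list holds Dmrt1 itself.

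Within groups, the median correlation was higher among mitosis genes than among replication genes. After subtraction of group means, the median Pearson correlation over the 12 arrays was 0.25 for the 190 pairs of mitosis genes, 0.10 for the 78 pairs of replication genes and -0.01 for the 260 mixed pairs, beside 0.02 over all pairs of tested genes. All pairs share the same 12 arrays, and these values are descriptions. Kif20a and Cdt1 were the closest pair (r = 0.95), followed by Mki67 and Cdt1 (r = 0.94) and by Bub1b and Kif20a (r = 0.92). Mad2l1, Aurkb and Tpx2 had the lowest median correlations with the other members, -0.28, -0.25 and -0.24. The MCM genes paired among themselves in part, with Mcm6 and Mcm7 at r = 0.83 and Mcm4 and Mcm5 at r = 0.73.

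Of the 75 probe sets, 64 passed the filter, and 21 member genes had several. Of 21900 probe sets tested, 3% rose and 2.74% fell with the knockout in 129Sv, and 1 of the 64 member probe sets rose, 1438571_at of Bub1. It read 48.8, 58.4 and 51.3 in wild-type 129Sv and 108, 104 and 77.3 in knockouts, a log2 difference of 0.86 (limma, adjusted p = 0.0104), where the brighter 1424046_at gave 0.17. In B6 0 of the 64 rose and 1 fell, that of Mad2l1, beside 1.24% and 3.78% of all probe sets (limma, adjusted p under 0.05). Between wild types 7 member probe sets were higher and 5 lower in 129Sv, beside 8.97% and 5.16%, and among knockouts 12 were higher and 8 lower, beside 18.6% and 12.2%.

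Probe sets of the same gene went apart most between strains. The Bub1 probe set 1438571_at read 306, 233 and 249.4 in wild-type B6, so that it was lower in 129Sv by 2.31 on the log2 scale, while 1424046_at gave 0.37 the other way. Rrm2, a subunit of ribonucleotide reductase, read 1862, 2032 and 2057 in wild-type 129Sv and 366, 301 and 405 in wild-type B6 on 1448226_at, a log2 difference of 2.48 (limma, adjusted p = 2.2e-07). On the brighter 1434437_x_at the difference was -0.17. Nusap1, a microtubule protein of the spindle, gave -2.51 on 1416310_at, where 129Sv values of 8.68 to 11 lay below the filter, and -0.04 on 1416309_at. Cenpa gave 1.37 on 1441864_x_at and -0.24 on the brightest, 1450842_a_at. The dimmest, 1444416_at, was below the filter on all 129Sv arrays (5.52 to 6.71) and near it in B6 (13.4 to 22.0), so that its sign, lower in 129Sv, is given without a size. Over all genes, of 1377 with several probe sets and any call between wild types, 5.08% had calls in both directions, and of the members 1 of 9 did, which was Cenpa through that dim probe set. Among knockouts it was 6.1% of 2883 genes and 2 of 13 members, Bub1 and Cenpa.

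Calls for the helicase genes rest on bright probe sets whose suffix, _x_at or _s_at, marks probes that may match other transcripts. Mcm4 gave 0.32 among knockouts on 1436708_x_at and -0.27 (limma, adjusted p = 0.17) on 1416214_at. Mcm5 gave 0.58 on 1436808_x_at and 0.25 on 1415945_at. Mcm6 gave 0.35 on 1438852_x_at and 0.08 on 1416251_at. Mcm3 gave 0.47 on 1426652_at (limma, adjusted p = 0.0293), beside 0.38 on 1420028_s_at. The 4 probe sets of Mcm7 ranged from -0.13 to 0.47. The dim Mcm5 probe set 1459658_at read 81 to 113 in wild-type 129Sv and 17.8 to 36.6 in wild-type B6, a log2 difference of 1.89 (limma, adjusted p = 0.00551). For Mcm4 and Mcm7 the probe sets thus disagreed in sign. Among wild types, 1415945_at of Mcm5 read 615, 796 and 595 in 129Sv and 429, 449 and 344 in B6. Knockouts lay closer together there, at 653, 528 and 654 against 500, 594 and 451. Likewise 1426652_at of Mcm3 read 926, 1255 and 955 against 618, 673 and 681 in wild types. In knockouts it read 1305, 909 and 1066 against 751, 830 and 764, a smaller difference. By contrast 1416030_at of Mcm7 differed less in wild types than in knockouts.

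**Figure D5:**
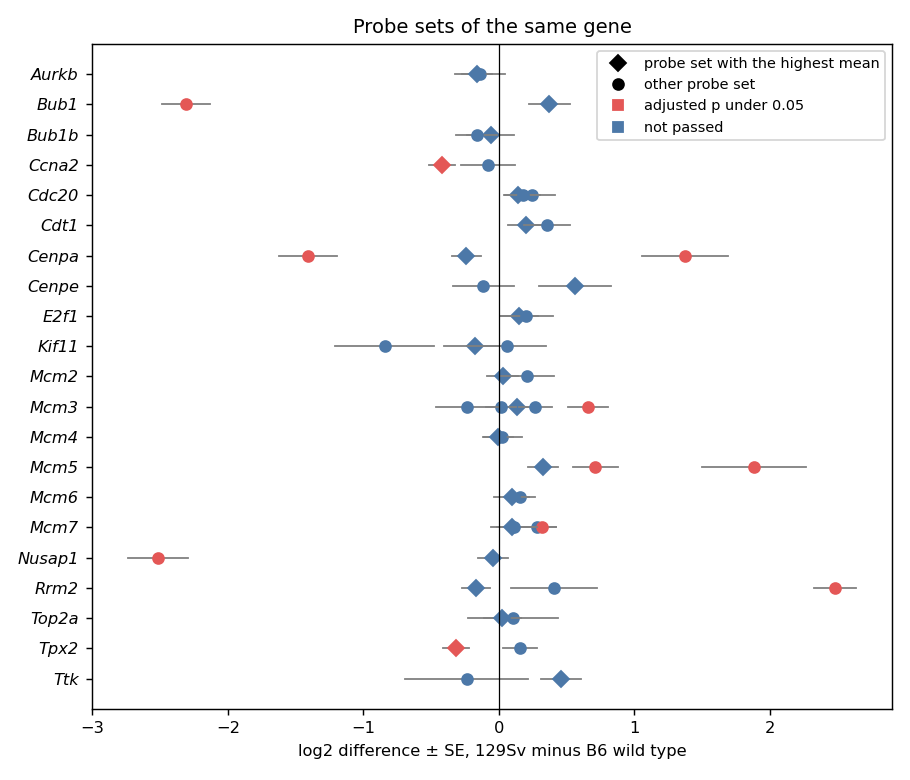
Log2 difference ± SE between wild-type 129Sv and wild-type B6 for every tested probe set of the 21 members with several, with diamonds for the probe set of the highest mean and circles for the others, in red where the adjusted p over 21900 probe sets is under 0.05. Rrm2 reaches 2.48 and Nusap1 -2.51 on a further probe set while their diamonds lie at -0.17 and -0.04.

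Other genes of mitosis and replication were read from lists written from knowledge of the pathways. Of 66 further mitosis genes, 64 were tested. With the knockout 2 rose in 129Sv, where 4.07% of all genes rose and 4.24% fell. In B6 1 rose and 3 fell, beside 2.45% and 5.45% of all genes, and the medians were -0.01 and -0.05. Mybl2, the B-Myb transcription factor that acts with the complex binding TTTGAA motifs, was the one that rose in both strains. It read 142, 192 and 101 in wild-type 129Sv and 367, 361 and 314 in knockouts, and in B6 88, 83.2 and 72.7 against 181, 192 and 155. The knockout arrays lay above the wild types in each strain, with log2 differences of 1.30 ± 0.21 (SE; limma, adjusted p = 0.000935) and 1.12 ± 0.21 (SE; limma, adjusted p = 0.00382). Its second probe set passed in both strains as well (1.08 and 0.75). Zwilch, a checkpoint protein of the kinetochore, also rose in 129Sv, 1.29-fold. In B6 the genes that fell were Nek2, a centrosome kinase, 1.47-fold, Ncapd3 of the condensin II complex 1.40-fold, and Anln, a protein of the cleavage furrow, 1.35-fold. In the fit over probe sets none of these 3 falls passed (adjusted p from 0.0579 to 0.0605), and in B6 further probe sets gave 0.25 for Nek2 and 0.01 for Anln.

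Of 60 further replication genes, 58 were tested, and with the knockout 3 rose in 129Sv and 1 fell in B6, with a median of 0.05 in each strain. Over all genes 4.07% rose in 129Sv and 5.45% fell in B6. Mcm8, a helicase of DNA repair, read 286, 299 and 295 in wild-type 129Sv and 607, 509 and 587 in knockouts, a 1.93-fold rise (limma, adjusted p = 0.0331, but 0.0509 over probe sets). Rpa3, of the complex that coats single-stranded DNA, rose 1.44-fold and Hells, a chromatin remodeller of the SNF2 family, 1.42-fold. E2f7, a repressor of E2F targets, fell 1.40-fold in B6, with an adjusted p of 0.0535 over probe sets (limma). Averaged over strains, 3 further mitosis genes rose and 1 fell, and 1 replication gene rose and 1 fell, beside 5.62% and 7.88% of all genes. Beside Mybl2, Zwilch, Hells and E2f7 these were Spc25 of the NDC80 kinetochore complex, which rose 1.23-fold, and Cdc25b, a phosphatase that activates CDK1, which fell 1.24-fold. For the difference of knockout effects 0 genes of either list passed (limma, adjusted p under 0.05), against 1.31% of all genes. At an unadjusted p under 0.05 there were 5 mitosis genes and 4 replication genes with the higher effect in 129Sv and 1 replication gene with the lower. Over all genes this share was 16.3% in either direction. Between strains, 4 further mitosis genes were higher and 2 lower in wild-type 129Sv, and 8 replication genes were higher, beside 10.9% and 5.19% of all genes. Among knockouts the counts were 17 higher and 3 lower for mitosis and 16 higher and 2 lower for replication. These are to be read against 20.3% and 13.8% of all genes and beside the germ cell markers given above. Anln led the mitosis genes (2.32-fold) and Mcm10, which helps start the helicase, the replication genes (2.21-fold).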

How the data were processed

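The deposited table holds 1 intensity per probe set and array, summarised by the authors with GCRMA per the submitters' processing notes. GCRMA models background from probe sequence and quantile-normalises the arrays before probes are combined. Sources used here name neither its version nor its settings. Values had no entry below 1 and were read as linear intensities, of which log2 was taken. Gene names came from the platform annotation: 34958 named 1 gene, 932 named more and 9211 lacked a name, while 64 control probe sets were left out. Group means were estimated in 1 model of the 12 arrays (limma 3.58.1 under R 4.3.3, lmFit and eBayes with a variance trend, 8 residual and 6.71 prior degrees of freedom) over 12726 genes, and likewise over 21900 probe sets. Benjamini-Hochberg adjustment ran over all features of a fit, with 0.05 as the threshold. Errors of log2 differences are standard errors of the fit, and fold changes are 2 to the power of the size of the log2 difference. The fit was tested on simulated data with 200 changed genes. Of log2 changes of 0.5 it recovered 22% for the knockout in 129Sv and 32% in B6. Of log2 changes of 1 it recovered 70% and 76%. A change of the smaller size would thus often be missed in a gene drawn from all tested genes. Members had a smaller median SD within groups, 0.15 against 0.21, and were not simulated apart, so these shares are not theirs.

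Precision is limited by the number of arrays, 3 in each group, since arrays have no sequencing depth. The 34 genes, the other gene lists and the tests were chosen with earlier results of these data known, so counts over them are descriptions. Members were given in full, with values on every array, where called in any contrast or among the 2 largest differences in each direction with the knockout in either strain or between wild types. Of the further genes, those called with a knockout were named, up to the 6 largest in each direction. Motifs were searched in RefSeq promoters of GRCm38.p6, and promoters of 6 members were not analysed here. Replicate numbers were shared between groups, and same-numbered arrays of a strain correlated in their deviations between -0.47 and 0.01. Deviations from means of only 3 arrays are tied to each other, so these correlations cannot decide whether arrays were paired. The main fit took no arrays as pairs. In B6, 2 wild-type arrays each share a title number with a knockout array, while no 129Sv arrays share such a number. The meaning of that number is not given. Taken as a random block, it gave a correlation of 0.16 between arrays sharing it. Alternatives were other filters, probe set rules, scalings, variance models, blocks and covariates, thresholds and single arrays left out.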

Additional observations from a re-analysis of the deposited data

Results flagged for a closer look

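For Dmrt1, the fall with the knockout was larger in B6 than in 129Sv, with a difference of effects of 1.08 on the log2 scale (limma interaction, adjusted p = 0.045). For Bub1, all 3 knockout arrays lay above the wild types in 129Sv and below them in B6 on its brightest probe set, a difference of effects of 0.58 that did not pass (limma, adjusted p = 0.20). On its other probe set, 1438571_at, this opposition was absent: knockouts were above wild types by 0.86 in 129Sv and by 0.32 in B6, the latter without passing.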

How the results depend on the processing

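With single arrays left out, members called with the knockout ranged from 0 to 0 in 129Sv, 0 to 1 in B6 and 0 to 3 for the average. The difference of knockout effects stayed at 0, strain among wild types gave 1 to 7 and strain among knockouts 9 to 14. The mean of all probe sets of a gene gave 1 in 129Sv (Bub1) and 7 for strain among knockouts. It reversed Ttk in 129Sv knockouts (-0.072), Tpx2 between wild types (0.028) and Bub1 between knockouts (-0.41); the averaged probe sets of each of these genes differ in sign. Testing every probe set gave 1 in 129Sv, 2 for the average and 10 between wild types. Without a variance trend there were 0 in B6, 0 for the average and 2 between wild types. Array weights gave 1 in 129Sv, 3 in B6, 1 for the difference of effects (Mki67), 5 for the average and 9 between wild types. Fitting only the groups compared gave 0 in B6 and 8 between knockouts. A random block by the number that titles have in common gave 2 for the average. Adjusting for the title number that precedes the strain code gave 0 for the average, 1 between wild types and 5 between knockouts. The Actb ratio as a covariate gave 0 in B6, 0 for the average and 8 between wild types, and leaving out the pair of arrays with the highest ratio gave 0, 0 for the average and 8 between knockouts. Requiring 1.5-fold gave 0 in B6, 0 for the average, 1 between wild types and 4 between knockouts, and adjusted p under 0.1 gave 2 in B6 and 3 for the average. The cause of these changes was not tested.

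With replicate number as a block, members called between wild types were 2 in place of 4. This block gave 0 in 129Sv, 1 in B6 and 12 between knockouts, and the average called Mcm2 in place of Mad2l1. Over 27 named differences under all settings, 633 of 751 values kept direction and side of the threshold, 112 no longer passed, 3 newly passed and 3 reversed.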

Other observations

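Genes that hold cells in G1 or release them were read from a list of 24. Of 23 tested, 2 rose and 1 fell with the knockout in 129Sv, and 2 rose and 2 fell in B6, where 8.31% and 7.9% of all genes passed in either direction. Cdkn1a, the p21 inhibitor of cyclin-dependent kinases, read 84.5, 102 and 112 in wild-type 129Sv and 189, 299 and 299 in knockouts, a 2.60-fold rise (limma, adjusted p = 0.0038). Its other probe set gave a log2 difference of 0.67 in 129Sv, against 1.38, and did not pass (limma, adjusted p = 0.13). In B6 it read 69.3, 70.6 and 47.6 against 109, 114 and 60.2, which overlapped and did not pass. Ccnd1, cyclin D1, rose 1.61-fold in 129Sv (limma, adjusted p = 0.0081) and 1.46-fold in B6 (limma, adjusted p = 0.0361). Ccnd2, cyclin D2, fell 1.36-fold in each strain on its brightest probe set. It went from 3180.2, 2467 and 2951 to 1961, 2147 and 2205 in 129Sv, and from 3117, 3641 and 3245 to 2484, 2712 and 2194 in B6. Its other probe sets gave log2 differences from -0.99 to -0.25 in 129Sv and from -0.81 to -0.41 in B6. Cdkn2a, which encodes p16 and p19ARF, fell 1.92-fold in B6 (limma, adjusted p = 0.0186), and E2f4, an E2F factor that represses its targets in arrested cells, rose 1.66-fold there (limma, adjusted p = 0.0499). In the fit over probe sets the B6 calls of E2f4 and Ccnd1 were lost (limma, adjusted p = 0.0653 and 0.0505). Between wild types Cdkn2b, Rb1 and Cdkn2a were higher in 129Sv, by 2.94, 2.27 and 1.89-fold. Cdkn1b and Cdkn2d were lower, by 1.67 and 1.39-fold, where 10.9% of all genes were higher and 5.19% lower. Among knockouts Cdkn2b, Cdkn2a, Cdkn1a, Rb1 and Tfdp2 were higher (6.80, 3.18, 2.83, 2.47 and 1.28-fold), beside 20.3% of all genes, and 0 were lower. Cdkn2b read 19.2, 27.3 and 30.0 in wild-type B6 and Cdkn2a 20.3, 22.4 and 21.0 in B6 knockouts, close to the filter at 16. Fold changes of these genes are therefore uncertain in size. The germ cell and Sertoli marker values given above moved with the same groups, and their part was not tested.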
